A study of Homo sapiens with 12 samples.

Results

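The genes described here are 37 targets and regulators of NRF2 and enzymes of redox metabolism, listed by name, with no threshold on a measured value but with earlier results of these data known. Of the 37, 36 had a row among the 16299 genes of the expression table and all 36 were tested among 15794 genes; no row was matched to SRXN1, which is not analysed here. Messenger RNA captured by its poly-A tail was sequenced from BXPC3 and PANC1, 2 established lines of human pancreatic cancer. BXPC3 is known as an epithelial line that has lost SMAD4, and PANC1 as a less differentiated line with SMAD4. Each line was grown with collagen, with 5% GelMA or with 7.5% GelMA (gelatin methacryloyl, a modified denatured collagen that can be cross-linked into a gel) as its culture substrate. These 6 groups hold 2 libraries each, 12 in all, and share a high-glucose medium with serum and antibiotics. The labels name no genetic change and no drug in any group, and each line stands for 1 tumour. Gel stiffness, culture time and whether replicates were separate cultures are not stated. A p-value here sets a difference against the spread between libraries within groups, pooled over all 6 groups of both lines. This spread may be purely technical.

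NRF2 (gene NFE2L2) is a transcription factor that the adaptor KEAP1 holds in the cytoplasm and passes to the proteasome. Oxidants and electrophiles modify KEAP1, after which NRF2 accumulates, pairs with a small MAF protein such as MAFG and binds antioxidant response elements in the promoters and enhancers of its targets. Those targets make and recycle glutathione and thioredoxin, supply NADPH, and clear quinones, aldehydes and haem.

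Levels are log2 RPKM as deposited by the authors (read density per gene length, on a log2 scale, so 1 unit is a 2-fold difference), and 0 stands for 1 RPKM. A difference is a difference of group means with its standard error (SE) in a limma fit over all 12 libraries, and a gene rose, fell or was called where its Benjamini-Hochberg adjusted p was under 0.05 over all genes tested. Sequencing depth is unknown, so no counting interval can be given. In the line check, SMAD4 was at -5.92 to -5.35 in BXPC3 and 3.94 to 4.55 in PANC1. Of the 6 line markers, the epithelial genes EPCAM (1.00) and CDH1 (0.51) rose and the mesenchymal factor ZEB1 (-0.54) fell with GelMA in PANC1. In BXPC3 only ZEB1 (-0.31) was called, and it fell. The epithelial KRT19 (-0.01 in PANC1, 0.05 in BXPC3) and the mesenchymal VIM (0.07 and -0.25) were called in neither line. Replicates correlated at 0.9922 to 0.995 across genes. Of the 5 fibroblast and stellate markers 1 had a row, COL1A1, whose level lay between 8.96 and 11.1 RPKM in BXPC3 and, in PANC1, between 90.1 and 91.5 RPKM in collagen, 211 and 215 in 5% and 357 and 418 in 7.5% GelMA. The 3 endothelial markers with a row of 4 summed to at most 4.12 RPKM and the 2 immune markers of 5 to at most 3.49 RPKM in any library. In PANC1 8 of 13 mitochondrially encoded genes rose in GelMA and 0 fell, with summed levels of 65200 to 65400 RPKM in collagen and 72800 to 74200 in GelMA. In BXPC3 1 of the 13 rose and 1 fell (70400 to 71900 and 72400 to 72600 RPKM). The values were taken as quantile normalized, and MT-CO1 was at 13.74, the highest value of the table, in every library. The summed levels therefore follow the ranks of these genes and do not measure the mitochondrial share of the RNA. The part of these markers in the results was not tested.

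With GelMA in place of collagen, the called genes among the 36 were higher in BXPC3 and mostly lower in PANC1. In BXPC3 16 of the 36 rose and 0 fell (limma; 17 had an unadjusted p under 0.05, the other one being CAT, at -0.13), where 19.4% of all genes rose and 16.7% fell. In PANC1 18 fell and 6 rose, where 27.4% of all genes fell and 27.7% rose. The median difference of the 36 was 0.22 in BXPC3 and -0.33 in PANC1, beside 0.01 and -0.01 over all genes tested. Over 100 other genes of the pathway, followed below, the median was 0.03 in BXPC3 and 0.00 in PANC1. The falls in PANC1 reached 7.05-fold (HMOX1), whereas the rises in BXPC3 reached 1.82-fold (AKR1B1). In bulk RNA, fewer cells of a kind and less RNA per cell cannot be told apart.

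**Figure D1:**
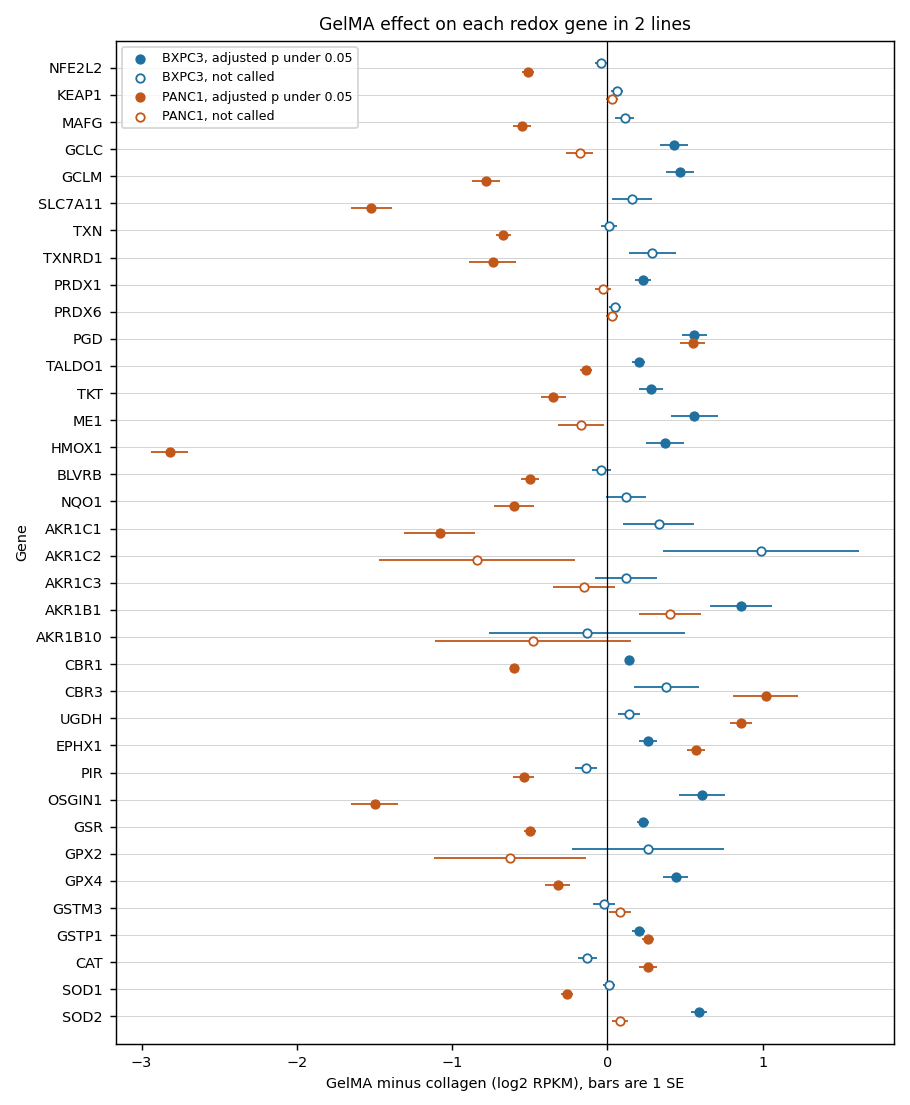
Difference between GelMA (4 libraries) and collagen (2 libraries) for each of the 36 genes, in log2 RPKM, with bars of 1 SE; blue is BXPC3, orange is PANC1, and filled points were called at an adjusted p under 0.05. The filled blue points all lie to the right of 0, 18 of the 24 filled orange points lie to the left, and HMOX1 in PANC1 is the lowest point, at -2.82.

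GCLM, HMOX1, OSGIN1, GSR, GPX4, TKT, TALDO1 and CBR1 rose in BXPC3 and fell in PANC1 (8 of 36, beside 3.34% of all genes). Without BXPC3 collagen replicate 2 this count was 4, GCLM, GPX4, GSR and TALDO1. PGD, EPHX1 and GSTP1 rose in both lines (3 of 36, beside 9.02% of all genes). None fell in both (0 of 36, beside 8.47% of all genes) and none fell in BXPC3 and rose in PANC1 (0 of 36, beside 3.04% of all genes). The difference between the lines in the GelMA effect was itself tested (PANC1 effect minus BXPC3 effect). It was lower in PANC1 for 22 genes and higher for 3, CAT, EPHX1 and UGDH, where 20.6% and 18.5% of all genes were lower and higher. The median of this difference was -0.49 for the 36 genes and -0.02 for all genes.

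Among the regulators, NFE2L2 (ENSG00000116044, GRCh38 chr2:177227595-177392697, minus strand, GENCODE 29) was at 7.34 and 7.34 in the PANC1 collagen libraries, at 6.81 and 6.80 in 5% GelMA and at 6.83 and 6.86 in 7.5% GelMA. All 4 GelMA libraries lay below both collagen libraries, a fall of 0.51 ± 0.04 (SE; limma adjusted p = 3.8e-06). In BXPC3 the 6 NFE2L2 values ran from 6.72 to 6.88, with the groups overlapping and a difference of -0.04 ± 0.04. MAFG, the small MAF partner, was at 6.76 and 6.85 in PANC1 collagen, at 6.12 in both 5% libraries and at 6.39 and 6.40 in the 7.5% libraries. MAFG thus fell by 0.55 ± 0.06 in PANC1 (adjusted p = 2.54e-05) and was at 0.11 ± 0.06, not called, in BXPC3. KEAP1, the inhibitor, kept within 6.25 to 6.31 in PANC1 and 5.92 to 6.07 in BXPC3, with differences of 0.03 ± 0.04 and 0.06 ± 0.04, neither called.

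Glutathione synthesis begins with cystine import by SLC7A11 and the ligase made of GCLC, its catalytic subunit, and GCLM, its modifier subunit. SLC7A11 (ENSG00000151012, chr4:138164097-138242349, minus strand) was at 5.15 and 5.42 in PANC1 collagen, 3.40 and 3.34 in 5% GelMA and 4.20 and 4.12 in 7.5% GelMA. The groups did not overlap, with 5% GelMA lowest, and SLC7A11 fell by 1.52 ± 0.13 (adjusted p = 5.52e-06), a 2.87-fold lower level. In BXPC3 it was at 5.96 and 5.56 in collagen and 5.71 to 6.28 in GelMA, which overlap (0.16 ± 0.13).

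GCLM was at 5.69 and 5.42 in BXPC3 collagen and between 5.91 and 6.19 in the 4 GelMA libraries. In PANC1 it was at 6.22 and 6.41 in collagen and at 5.51, 5.48, 5.53 and 5.62 in GelMA. In either line the GelMA libraries lay wholly on 1 side of collagen, above in BXPC3 (0.47 ± 0.09, adjusted p = 0.00289) and below in PANC1 (-0.78 ± 0.09, adjusted p = 5.21e-05). The difference between these effects was -1.25 ± 0.13 (adjusted p = 5.21e-05). GCLC rose in BXPC3 (0.43 ± 0.09, adjusted p = 0.00482), from 6.25 and 5.95 in collagen to 6.34 to 6.85 in GelMA. In PANC1 GCLC was not called over both gels (-0.18 ± 0.09). Its PANC1 values were 5.46 and 5.50 in collagen, 5.11 and 5.15 in 5% and 5.45 and 5.49 in 7.5% GelMA, so the 5% libraries lay lowest and the 7.5% ones overlapped collagen.

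**Figure D2:**
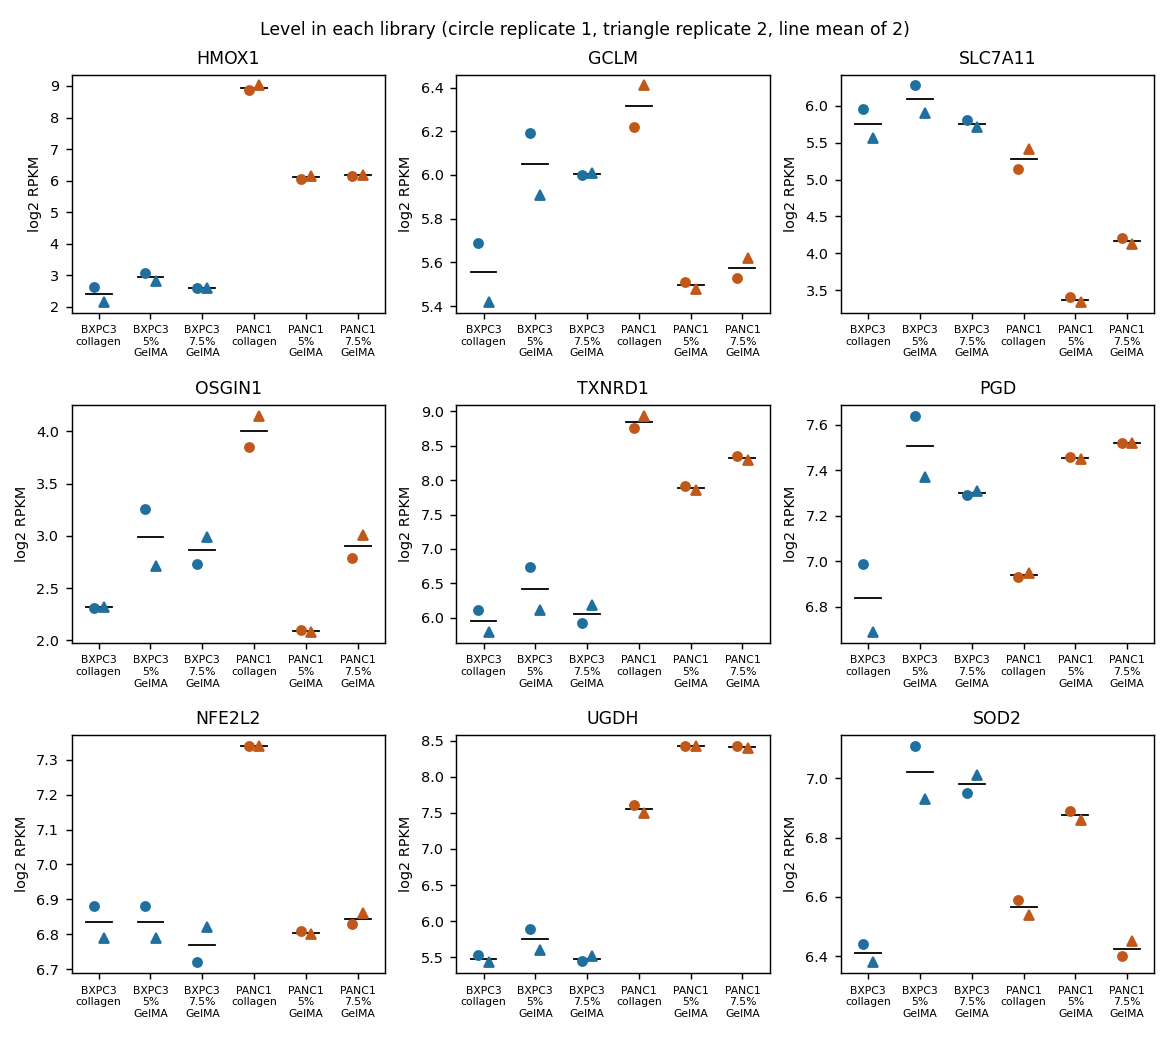
Level of 9 redox genes in each of the 12 libraries, in log2 RPKM with a separate scale per panel; blue is BXPC3, orange is PANC1, circles are replicate 1, triangles replicate 2, and lines the mean of 2. HMOX1, SLC7A11 and OSGIN1 are highest in PANC1 collagen within that line, and in BXPC3 replicate 1 lies above replicate 2 in 5% GelMA for each of the 9 genes.

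Among the thiol reductants, TXN (thioredoxin) was at 6.70 and 6.60 in PANC1 collagen and at 5.89 to 6.04 in the GelMA libraries, a fall of 0.67 ± 0.05 (adjusted p = 2.4e-06) without overlap. TXNRD1, the reductase that recharges it, was at 8.76 and 8.94 in PANC1 collagen, 7.91 and 7.86 in 5% GelMA and 8.35 and 8.29 in 7.5% GelMA. It fell by 0.74 ± 0.15 (adjusted p = 0.00205), with both gels below collagen. In BXPC3 neither was called (TXN 0.01 ± 0.05, TXNRD1 0.29 ± 0.15). PRDX1, a peroxiredoxin that thioredoxin reduces, rose in BXPC3 (0.23 ± 0.05, adjusted p = 0.00682) and was at -0.03 ± 0.05 in PANC1. PRDX6 was at 0.05 ± 0.04 and 0.03 ± 0.04 in the lines, neither called.

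Of the 36 genes, 4 encode enzymes that supply NADPH or belong to the pentose phosphate pathway. All 4 were called higher in BXPC3, beside 19.4% of all genes. In PANC1 1 was higher and 2 were lower, beside 27.7% and 27.4% of all genes. PGD makes NADPH in the oxidative pentose phosphate pathway. It was at 6.99 and 6.69 in BXPC3 collagen and 7.64, 7.37, 7.29 and 7.31 in GelMA, and at 6.93 and 6.95 in PANC1 collagen and 7.46, 7.45, 7.52 and 7.52 in GelMA. Every GelMA library of both lines lay above its collagen libraries, by 0.56 ± 0.08 in BXPC3 (adjusted p = 0.000656) and 0.55 ± 0.08 in PANC1 (adjusted p = 0.000305). The difference between the lines was -0.02 ± 0.12, not called. TKT and TALDO1, of the non-oxidative arm, rose in BXPC3 by 0.28 ± 0.08 and 0.20 ± 0.04 and fell in PANC1 by 0.35 ± 0.08 and 0.14 ± 0.04. The tested differences between the lines were -0.63 ± 0.12 for TKT and -0.34 ± 0.06 for TALDO1 (adjusted p = 0.00218 and 0.00111). ME1, the cytosolic malic enzyme, rose in BXPC3 (0.56 ± 0.15, adjusted p = 0.0146) and was not called in PANC1 (-0.17 ± 0.15). The BXPC3 call of TKT was lost in 5 of 21 alternatives and that of ME1 in 1, and both were lost without collagen replicate 2.

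HMOX1, the inducible haem oxygenase (ENSG00000100292, chr22:35380361-35394214, plus strand), had the largest difference of the 36 in PANC1. It was at 8.88 and 9.02 in PANC1 collagen, 6.05 and 6.15 in 5% GelMA and 6.15 and 6.19 in 7.5% GelMA. The 4 GelMA libraries stood close together, far below collagen, and HMOX1 fell by 2.82 ± 0.12 (adjusted p = 5.95e-08). In BXPC3 it was at 2.64 and 2.16 in collagen, 3.07 and 2.82 in 5% and 2.60 and 2.59 in 7.5% GelMA. Collagen and GelMA values overlap, and its call there (0.37 ± 0.12, adjusted p = 0.0319) was lost in 6 of 21 alternative analyses, with 0.13 and adjusted p = 0.355 without BXPC3 collagen replicate 2. The difference between the lines was -3.19 ± 0.16 (adjusted p = 9.8e-07). BLVRB, biliverdin reductase B, fell in PANC1 by 0.50 ± 0.06 (adjusted p = 4.86e-05) and was at -0.04 ± 0.06 in BXPC3. The other biliverdin reductase gene, BLVRA, is not among the 36 and was named after its values were seen. BLVRA rose in PANC1 by 0.40 ± 0.05 (adjusted p = 0.000104) and was at -0.06 ± 0.05, not called, in BXPC3. NQO1, the quinone reductase most used as a readout of NRF2, was at 7.40 and 7.47 in PANC1 collagen, 6.67 and 6.62 in 5% and 7.04 and 7.01 in 7.5% GelMA. NQO1 fell in PANC1 by 0.60 ± 0.13 (adjusted p = 0.00261), and in BXPC3, where it ran from 6.71 to 7.49, it was at 0.12 ± 0.13 and not called.

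Of the aldo-keto reductases, which reduce aldehydes, ketones and steroids, only AKR1B1 (aldose reductase) was called in BXPC3. It was at 7.66 and 6.98 in collagen and at 8.71, 7.97, 7.92 and 8.14 in GelMA (0.86 ± 0.20, adjusted p = 0.00831). The call was lost without collagen replicate 2 (0.52, adjusted p = 0.106). AKR1C2 in BXPC3 ran from 5.58 and 6.33 in collagen to 7.80, 6.83, 6.49 and 6.65 in GelMA, and did not pass (0.99 ± 0.63). The fit pools the spread of both lines, and the PANC1 values, all under 1 RPKM, ran from -5.87 to -2.97. On the log2(RPKM + 1) scale AKR1C2 was called higher in BXPC3 (0.98, adjusted p = 0.00848). AKR1C1 fell in PANC1 by 1.08 ± 0.23 (adjusted p = 0.00314), but within levels of -2.14 to -0.45, and this call was lost on the log2(RPKM + 1) scale (-0.31, adjusted p = 0.13). AKR1C3 and AKR1B10 were called in neither line. In PANC1 AKR1B1 was at 5.67 and 5.73 in collagen and at 5.96, 5.92, 6.27 and 6.28 in GelMA. Every GelMA library lay above collagen, but the difference (0.40 ± 0.20) was not called in the fit that pools both lines. When only the PANC1 libraries were fitted, AKR1B1 was called higher, and GCLC and ME1 were called lower.

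AKR1C1, AKR1C2 and AKR1C3 are related neighbours on chromosome 10, so a read from a shared stretch could be counted for another copy and their values are uncertain. Of the 50-base words in AKR1C2's coding transcripts in GENCODE 29, 48.1% also occur in transcripts of another gene, chiefly AKR1C1. The share was 27.0% for AKR1C1, 17.4% for AKR1B10, 14.45% for NFE2L2 (with AC019080.1), 13.8% for OSGIN1 (with AC009119.2) and 9.55% for AKR1C3. It was 9.28% for SOD2, 7.42% for GCLC, 5.81% for PGD and 0.58% for HMOX1, and their values carry the same uncertainty to that extent. For SOD2 the chief partner, with 4.82% of its words, was another gene entry of the same name. The strand setting of the counting is unknown.

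Among the other detoxification genes, UGDH, which makes the sugar for glucuronidation, and EPHX1, the microsomal epoxide hydrolase, moved upward in PANC1. UGDH was at 7.61 and 7.50 in collagen and at 8.43, 8.42, 8.43 and 8.40 in GelMA, a rise of 0.86 ± 0.07 (adjusted p = 5.52e-06) to a nearly equal level in both gels. EPHX1 rose by 0.57 ± 0.06 (adjusted p = 4.35e-05) in PANC1 and by 0.26 ± 0.06 (adjusted p = 0.0113) in BXPC3. CBR1 and CBR3, neighbouring carbonyl reductases on chromosome 21, parted in PANC1. CBR1 was at 6.67 and 6.72 in collagen and 6.03 to 6.13 in GelMA (-0.60 ± 0.03, adjusted p = 4.96e-07). CBR3 was at -0.19 and 0.67 in collagen and 1.00 to 1.38 in GelMA (1.02 ± 0.21, adjusted p = 0.00208). These are low levels, 0.879 to 2.61 RPKM, and the CBR3 difference ran from 0.59 to 1.44 over the alternatives. In BXPC3 CBR3 was at 2.15 and 1.93 in collagen and at 2.39, 2.38, 2.50 and 2.44 in GelMA, without overlap. Its difference there was 0.38 ± 0.21, and its difference between the lines was 0.63 ± 0.29, neither called. The fit pools the spread of both lines, and CBR3 was called higher in BXPC3 when only the BXPC3 libraries were fitted.

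OSGIN1, a growth inhibitor induced by oxidative stress (ENSG00000140961, chr16:83948282-83966332, plus strand), was at 3.85 and 4.15 in PANC1 collagen, 2.10 and 2.08 in 5% and 2.79 and 3.01 in 7.5% GelMA. In BXPC3 it was at 2.31 and 2.32 in collagen and at 3.26, 2.71, 2.73 and 2.99 in GelMA. It fell in PANC1 by 1.50 ± 0.15 (adjusted p = 2.35e-05) and rose in BXPC3 by 0.61 ± 0.15 (adjusted p = 0.0126), in neither line with overlap between GelMA and collagen. The difference between the lines, -2.11 ± 0.22 (adjusted p = 5.86e-05), was second in size to that of HMOX1 among the called genes. PIR, an iron-binding nuclear protein, fell in PANC1 by 0.54 ± 0.07 (adjusted p = 0.000112) and was at -0.14 ± 0.07 in BXPC3.

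Of the genes that use glutathione, GSR, which regenerates it, and GPX4, which reduces lipid peroxides, rose in BXPC3 (0.23 ± 0.04 and 0.44 ± 0.08, adjusted p = 0.00204 and 0.00255). Both fell in PANC1 (-0.50 ± 0.04 and -0.32 ± 0.08, adjusted p = 5.44e-06 and 0.00772). GPX4 was at 8.46 and 8.07 in BXPC3 collagen and 8.66 to 8.74 in GelMA, and at 8.36 and 8.25 in PANC1 collagen and 7.89 to 8.09 in GelMA, without overlap in either line. GSTP1, a glutathione transferase and the most abundant of the 36 in BXPC3, rose in both (0.20 ± 0.04 and 0.26 ± 0.04). GSTM3 (-0.02 ± 0.07 and 0.08 ± 0.07) and GPX2 (0.26 ± 0.49 and -0.63 ± 0.49) were called in neither. For GPX2 the fit pools the spread of both lines, and its PANC1 values, all under 1 RPKM, ran from -4.43 to -2.53. In BXPC3 it ran from 8.66 to 9.32, with collagen and GelMA overlapping, and was called higher in GelMA on the log2(RPKM + 1) scale.

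SOD2, the mitochondrial superoxide dismutase (ENSG00000112096, chr6:159669057-159745186, minus strand), had the lowest p of the 36 in BXPC3. It was at 6.44 and 6.38 in collagen and 7.11, 6.93, 6.95 and 7.01 in GelMA (0.59 ± 0.05, adjusted p = 3.09e-05). In PANC1 it was at 6.59 and 6.54 in collagen, above that in 5% GelMA (6.89 and 6.86) and below it in 7.5% GelMA (6.40 and 6.45), and was not called over both gels (0.08 ± 0.05). SOD1, its cytosolic counterpart, fell in PANC1 by 0.26 ± 0.04 (adjusted p = 0.000323) and was at 0.01 ± 0.04 in BXPC3. CAT (catalase) rose in PANC1 by 0.26 ± 0.06 (adjusted p = 0.00278) and was at -0.13 ± 0.06 in BXPC3.

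The count of BXPC3 rises moved with 1 collagen library. Within BXPC3, replicate 1 exceeded replicate 2 for 31 of 36 genes in collagen (median 0.20) and 34 of 36 in 5% GelMA (median 0.18), but for 8 of 36 in 7.5% GelMA (median -0.06). Over all genes replicate 1 was higher for 51.4%, 49.4% and 48.6%. In PANC1 it was higher for 17, 23 and 9 of the 36, with medians of 0, 0.02 and -0.03. The part of this gap between replicates in the BXPC3 differences was not tested. Without BXPC3 collagen replicate 2, the lower of the 2, 7 of the 16 rises were still called, those of GCLM, PGD, TALDO1, GSR, GPX4, GSTP1 and SOD2, and the tested differences between the lines numbered 20 lower and 3 higher. The falls in PANC1, 18, numbered 16 to 19 when any 1 library was left out.

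**Figure D3:**
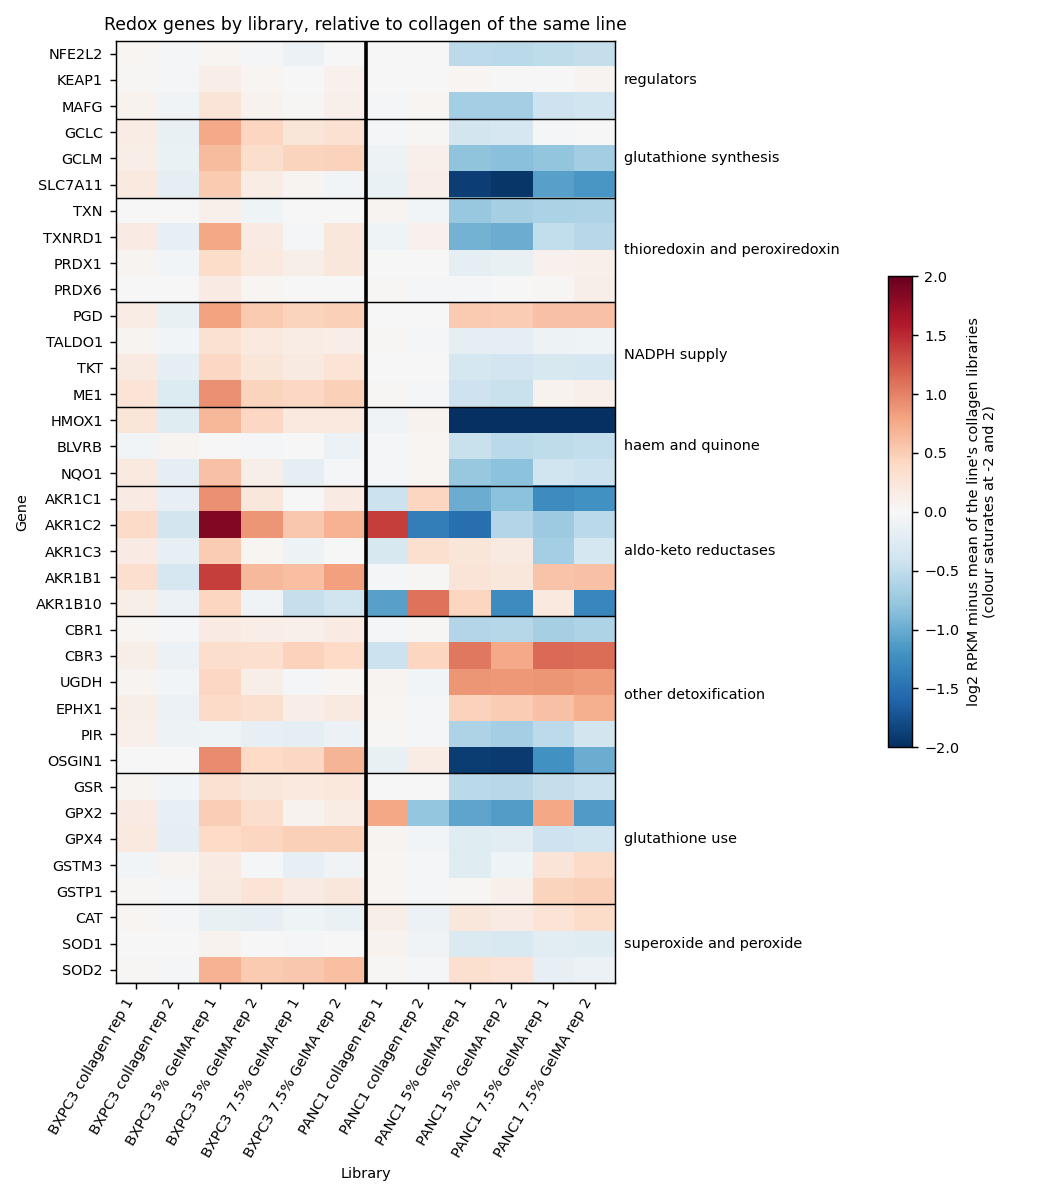
Each row is a gene, ordered by role, and each column a library; colour is log2 RPKM minus the mean of the 2 collagen libraries of the same line, red higher and blue lower, saturating at -2 and 2. GelMA columns are mostly red in BXPC3 and mostly blue in PANC1, the first 5% GelMA library of BXPC3 is the reddest, and HMOX1 in PANC1 GelMA exceeds the colour range.

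The concentration of GelMA was compared next, 7.5% with 5%. In PANC1 7 genes were higher in 7.5% and 1 was lower, where 9.16% and 9.56% of all genes were. SLC7A11 (0.79 ± 0.15, adjusted p = 0.00467), OSGIN1 (0.81 ± 0.18, adjusted p = 0.0114), MAFG (0.27 ± 0.07), GCLC (0.34 ± 0.10) and PRDX1 (0.25 ± 0.06) were higher in 7.5% GelMA, nearer to their mean levels in collagen. PRDX1 passed its collagen level, with means of 8.79 in collagen, 8.63 in 5% and 8.88 in 7.5% GelMA. GSTP1 (0.40 ± 0.05, adjusted p = 0.000324) and GSTM3 (0.49 ± 0.08, adjusted p = 0.00296) were higher too, moving above collagen, and SOD2 was lower (-0.45 ± 0.06, adjusted p = 0.000501). HMOX1 (0.07 ± 0.13) and NFE2L2 (0.04 ± 0.05) were not called between the gels. The calls of GCLC, PRDX1, MAFG and OSGIN1 were lost when single PANC1 GelMA libraries were left out, which left 4 or 5 calls.

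In BXPC3 0 of the 36 were called between 7.5% and 5% by limma, 9 had an unadjusted p under 0.05, and 0.0443% and 0.038% of all genes were called higher and lower. The median was -0.11, beside 0.01 for all genes, and replicate 1 of 5% GelMA was the highest of the 4 GelMA libraries for GCLC, GCLM, TXNRD1, PGD and HMOX1. The 7.5% minus 5% effect differed between lines for 9 genes, 8 higher and 1 lower in PANC1 (4.01% and 4.96% of all genes). Among these 9, SLC7A11 had the largest difference, 1.12 ± 0.21 (adjusted p = 0.00982). This count was 14 without BXPC3 5% GelMA replicate 2, and 3 to 5 without any 1 of the other 7 GelMA libraries.

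The lines were compared last. Over all 3 substrates 13 of the 36 genes were higher in PANC1 and 18 lower, where 50% and 41.9% of all genes were. At least 2-fold apart were 5 higher and 12 lower in PANC1, beside 22.9% and 20.8% of all genes. GPX2, a gastrointestinal glutathione peroxidase, ran from 406 to 639 RPKM in BXPC3 and from 0.0464 to 0.173 RPKM in PANC1. AKR1C1 ran from 167 to 353 RPKM in BXPC3 and from 0.227 to 0.731 in PANC1, and AKR1C2, AKR1C3 and AKR1B10 were likewise under 1 RPKM in every PANC1 library and at 44.3 RPKM or more in every BXPC3 library. Folds for these 5 depend on the unknown offset before the log. On the log2(RPKM + 1) scale the differences were -8.88 for GPX2, -7.34 for AKR1C1, -6.57 for AKR1C2, -6.40 for AKR1C3 and -5.76 for AKR1B10, all still called.

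Against that, HMOX1 was 21.5-fold higher in PANC1 (4.43 ± 0.08, adjusted p = 1.45e-12), with 66.1 to 520 RPKM in PANC1 and 4.48 to 8.4 RPKM in BXPC3. UGDH was 5.92-fold, TXNRD1 4.64-fold, GSTM3 2.94-fold and MAFG 2.1-fold higher in PANC1. GSR (4.31-fold), AKR1B1 (3.79-fold), SLC7A11 (3.04-fold), CBR3 (2.60-fold), TXN (2.55-fold), GSTP1 (2.39-fold) and GCLC (2.04-fold) were higher in BXPC3. The thioredoxin pair thus lay in opposite order, TXN at 178 to 200 RPKM in BXPC3 and 59.4 to 104 in PANC1, TXNRD1 at 55.2 to 106 and 233 to 491 RPKM. NQO1 (0.05 ± 0.08), PRDX1 (0.03 ± 0.03), PGD (0.09 ± 0.05), ME1 (-0.13 ± 0.10) and GCLM (-0.07 ± 0.06) were not called between lines over all substrates. For GCLM this averaged over opposite orders, with means of 6.32 in PANC1 and 5.55 in BXPC3 in collagen, 5.50 and 6.05 in 5% GelMA and 5.57 and 6.01 in 7.5% GelMA. NQO1 was at 7.43 in PANC1 and 6.91 in BXPC3 in collagen and at 6.65 and 7.26 in 5% GelMA. In 7.5% GelMA it was at 7.03 in PANC1 and 6.80 in BXPC3, so its order was opposite in 5% GelMA only. The line difference within 1 substrate was not tested.

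**Figure D4:**
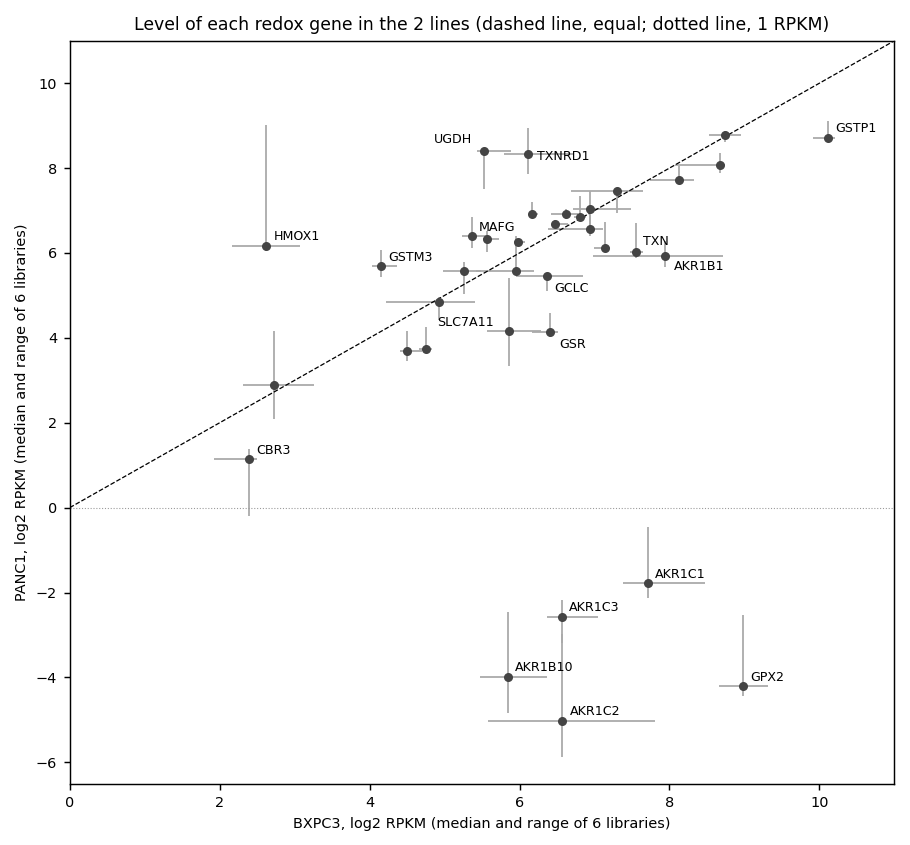
Median level of each of the 36 genes in the 6 BXPC3 libraries (horizontal) and the 6 PANC1 libraries (vertical), in log2 RPKM, with bars from the lowest to the highest library; genes at least 2-fold apart are named. GPX2, AKR1C1, AKR1C2, AKR1C3 and AKR1B10 lie below the dotted line of 1 RPKM in PANC1, and HMOX1 and UGDH stand farthest above the line of equal levels.

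Promoter letters were not used to choose the genes, although NRF2 targets are known in part by such elements. RefSeq promoter windows (GRCh38.p14, 250 bases before to 50 after a start) were present for 29 of the 37 genes. The core antioxidant response element TGACNNNGC was searched on both strands. It occurred in a window of 10 of the 29 genes (34.5%), beside 16.1% of 27305 genes in the table and 13.3% of its 34943 windows of the same length. The AP-1 motif TGANTCA, which can overlap it, occurred for 4 of the 29 (13.8%, beside 9.37% of genes). So that their flanks can be compared, 1 match is shown for each gene with a match that lies in annotated untranslated regions by no more than 21 bases. Capitals mark the 9-base core, and each is read 5′ to 3′ on the strand that carries TGACNNNGC, with 20 bases on either side.
GCLM, chr1:93909436-93909484, plus strand: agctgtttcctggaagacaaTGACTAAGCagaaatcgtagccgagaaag
TXNRD1, chr12:104215660-104215708, plus strand: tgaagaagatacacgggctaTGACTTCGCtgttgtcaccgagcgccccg
CBR1, chr21:36069845-36069893, minus strand: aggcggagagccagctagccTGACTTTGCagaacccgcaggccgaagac
EPHX1, chr1:225825256-225825304, plus strand: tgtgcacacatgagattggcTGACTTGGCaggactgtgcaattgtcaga
ME1, chr6:83431160-83431208, minus strand: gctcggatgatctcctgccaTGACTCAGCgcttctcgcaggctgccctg
PGD, chr1:10398843-10398891, minus strand: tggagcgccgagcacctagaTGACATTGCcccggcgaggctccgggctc

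By GENCODE 29, the ME1, TXNRD1 and CBR1 matches above lay before the gene, those of PGD and EPHX1 in an intron, and that of GCLM at the edge of its first exon. The core shown for ME1, TGACTCAGC, contains the AP-1 motif, and the matches of GSTP1 and PIR have the same core. Matches of KEAP1, GPX2, GSTP1 and PIR and further ones of ME1 and TXNRD1 are not shown. Of the 10 genes with a match, 6 rose and 0 fell in BXPC3 GelMA, while 3 rose and 4 fell in PANC1, where 19.4% and 16.7% of all genes rose and fell in BXPC3 and 27.7% and 27.4% in PANC1. Of the 18 tested genes with windows and no match, 7 rose and 0 fell in BXPC3, and 2 rose and 10 fell in PANC1. A match describes letters in a window and is not a measured binding site.

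The rest of the pathway was followed in 8 lists of other genes, 102 in all, of which 100 were tested. In BXPC3 22 rose and 18 fell with a median of 0.03, and in PANC1 32 rose and 36 fell with a median of 0.00. These shares are near those over all genes in BXPC3 (19.4% rose, 16.7% fell) and somewhat above them in PANC1 (27.7% and 27.4%), and the counts of each list are to be read against the same shares. Among 10 regulators of NRF2 in BXPC3, 3 rose and 4 fell, led by SQSTM1 (0.85 ± 0.09, adjusted p = 8.77e-05), the autophagy receptor that sequesters KEAP1, and the related factor NFE2L3 (-0.80 ± 0.07). In PANC1 3 of these rose and 3 fell, with DPP3, a KEAP1-binding peptidase, at 0.50 ± 0.05, the ubiquitin ligase subunit BTRC at 0.32 ± 0.04 and the repressor BACH1 at -0.30 ± 0.04.

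Of 14 other NADPH genes, 6 rose and 0 fell in BXPC3, and 5 rose and 6 fell in PANC1, with ALDH1L1 at -2.10 ± 0.35, MTHFD2 at -0.92 ± 0.03 and IDH2 at -0.89 ± 0.08. NNT, a mitochondrial enzyme like MTHFD2 and IDH2 and named after its values were seen, rose in PANC1 by 0.87 ± 0.05. Of 10 genes of glutathione synthesis, degradation and export, 3 rose and 1 fell in BXPC3 and 4 rose and 4 fell in PANC1. CHAC1, which degrades glutathione, rose in BXPC3 (0.62 ± 0.11) and fell in PANC1 (-1.43 ± 0.11), a difference between lines of -2.04 ± 0.16 (adjusted p = 1.12e-05). Of 14 thioredoxin and peroxiredoxin genes, 2 rose and 5 fell in BXPC3, where TXNIP, the thioredoxin inhibitor, was at -1.63 ± 0.13. In PANC1 7 rose and 4 fell, among them the sestrin SESN2 (-1.66 ± 0.10) and the glutaredoxin GLRX (0.98 ± 0.14).

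Of 15 glutathione peroxidases and transferases, 2 rose and 4 fell in BXPC3 and 4 rose and 4 fell in PANC1, where MGST2 was at 0.89 ± 0.09. Of 15 aldehyde and quinone genes, 0 rose and 2 fell in BXPC3, and in PANC1 4 rose and 7 fell, including CYP4F11 (-3.71 ± 0.28), ALDH1A1 (-2.81 ± 0.28) and ALDH1A3 (1.58 ± 0.05). Of 8 haem and iron genes, 2 rose and 0 fell in BXPC3 and 2 rose and 4 fell in PANC1, where the porphyrin transporter ABCB6 was at -0.94 ± 0.18 and the ferritin heavy chain gene FTH1 at -0.60 ± 0.10. Of 14 oxidant sources and other defences, 4 rose and 2 fell in BXPC3 (DUOX2, -1.21 ± 0.42) and 3 rose and 4 fell in PANC1 (ATF3, -1.11 ± 0.12).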

How the data were processed

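The deposited values were log2 RPKM in 1 table of 16299 Ensembl genes by 12 libraries, with 0 unmapped columns. HISAT2 2.1.0, HTSeq and the build GRCh38 (hg38) are named in the submitters' processing notes. For the annotation, the strand setting, the offset before the log and the gene filter, nothing was given in the sources used here. Sorted values agreed within 0.05 log2 across libraries for 13758 ranks, so the deposited log2 values were taken as quantile normalized, which removes library totals and any change shared by most genes. Symbols came from a table of gene names (16250 IDs) and GENCODE 29 (49 IDs).

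The 15794 genes that reached 1 RPKM in 2 or more libraries were tested with limma 3.58.1 in R 4.3.3, with a mean-variance trend, 6 group means, 6 residual and 3.89 prior degrees of freedom, and Benjamini-Hochberg adjustment over all genes in each of 7 comparisons. The script was tested on simulated data. Alternatives were the centring, pseudocount, filter, trend, line-only fit, replicate block and leaving out each library. All 37 genes were to be accounted for, and at most 3 genes a list with the largest called difference named for the other lists. The members and lists were chosen with earlier results of these data known.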

Additional observations from a re-analysis of the deposited data

Results flagged for a closer look

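The effect of GelMA against collagen differed between BXPC3 and PANC1, by the limma test of the difference, for 25 of the 36 genes. In log2, as the PANC1 effect minus the BXPC3 effect, it was lower for HMOX1 (-3.19), OSGIN1 (-2.11), SLC7A11 (-1.68), AKR1C1 (-1.40), GCLM (-1.25), TXNRD1 (-1.03), GPX4 (-0.76), CBR1 (-0.74), ME1 (-0.73), GSR (-0.73) and NQO1 (-0.72). It was lower by smaller amounts for TXN (-0.67), MAFG (-0.66), TKT (-0.63), GCLC (-0.61), SOD2 (-0.51), NFE2L2 (-0.48), BLVRB (-0.46), PIR (-0.41), TALDO1 (-0.34), SOD1 (-0.26) and PRDX1 (-0.26). It was higher for UGDH (0.72), CAT (0.40) and EPHX1 (0.31). The effect of 7.5% against 5% GelMA differed by the same test for 9 genes, with values of GCLC (0.66), GSTP1 (0.43), SOD2 (-0.41), PRDX1 (0.36), GSTM3 (0.68), OSGIN1 (0.93), SLC7A11 (1.12), NQO1 (0.84) and MAFG (0.37). The mitochondrially encoded genes, COL1A1, EPCAM, CDH1 and ZEB1, which moved with GelMA in PANC1, and the gap between BXPC3 replicates were measured beside these results, and their part in them was not tested.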

How the results depend on the processing

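Across the alternatives run, no call of the 36 genes changed direction in any of the 7 comparisons. Some alternatives added a fall to the rises in BXPC3 GelMA. When only the BXPC3 libraries were fitted, 16 genes were called higher and 1, CAT, was called lower. The count of calls for GelMA against collagen in BXPC3, 16, ran from 7 to 19 when 1 library was left out; the 7 came without BXPC3 collagen replicate 2, and the cause was not tested. For 7.5% against 5% GelMA the count ran from 0 to 1 in BXPC3, where UGDH was called lower without 5% GelMA replicate 2, and from 4 to 11 in PANC1, beside 8, with 13 when only the PANC1 libraries were fitted. For the difference between lines in that effect it ran from 3 to 14, beside 9, and was 4 without a mean-variance trend; the cause was not tested. Of the 24 calls in PANC1 GelMA 21 were made under every alternative (all but AKR1C1, GPX4 and TALDO1), as were 7 of 16 in BXPC3, 4 of 8 between 7.5% and 5% in PANC1, 22 of 25 and 3 of 9 of the differences between lines in the GelMA and the concentration effect, and 30 of 31 between the lines themselves.

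Over all genes tested, deviations of same-numbered libraries of a line correlated at -0.048 to 0.077, so no pairing by replicate number was seen over all genes. That correlation was not computed for the 36 genes alone and cannot exclude pairing among them. Of the 36, replicate 1 was the higher for 31 in BXPC3 collagen, 34 in 5% GelMA and 8 in 7.5% GelMA. With a replicate block, the calls for GelMA were 16 in BXPC3 and 24 in PANC1, and those for 7.5% against 5% were 0 and 10. Depth is unknown, and values under 1 RPKM, as of GPX2 and the AKR1C genes in PANC1, depend on the offset used by the authors.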
